A study of Mus musculus with 5 samples.

Results

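Nuclear receptors are transcription factors that bind lipids, bile acids, steroids, thyroid hormone, retinoic acid or foreign compounds, or that act without a known ligand. Most sit on hormone response elements as homodimers or as heterodimers with a retinoid X receptor. They switch target genes off or on by exchanging corepressors such as Ncor1 for coactivators such as Ncoa1. In the liver they govern bile acid and cholesterol handling, drug metabolism, glucose production and fatty acid oxidation. Fra-1 is the product of Fosl1 and belongs to the FOS family, whose members pair with JUN proteins as AP-1, which binds a different DNA element.

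The transcripts described here are those of 36 mouse nuclear receptor genes, out of 19752 genes that could be named on the array. They were taken from a list that leaves out the peroxisome proliferator-activated receptors and the clock receptors, and each was matched through the accession of its probes. The 36 genes had 53 probes. They were placed in classes by ligand or subfamily: lipid and xenobiotic sensors, thyroid hormone and retinoid receptors with the RORs, steroid receptors, estrogen-related receptors, NR2 orphans, NR4A receptors, and the NR5, NR6 and NR0B1 group.

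Liver RNA was compared between Fra-1hep mice, which overexpress Fra-1 in hepatocytes, and C57BL/6J wild-type mice. Mice of both genotypes, on the C57BL/6J background and aged 26 to 28 weeks, had been fed a high-fat diet with 45% of its energy from fat since 4 weeks of age. RNA of each of 4 Fra-1hep mice was labelled with Cy5 and had an array of its own against the same Cy3-labelled pool of 5 control mice. On 1 more array the dyes were swapped, so that Cy3 marked pooled Fra-1hep RNA. The promoter that drives the transgene and the mice that entered the swapped pool are not given in the sources used here. The question of the comparison is how extra Fra-1 in hepatocytes goes with liver transcript levels under this diet.

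Between 47.2% and 54.7% of spots were well above background in Cy5, and between 47.7% and 61.5% in Cy3. All 10 hepatocyte markers, among them Alb and Cps1, were well above background in both genotypes on all 5 arrays. The 1 probe for Fosl1 was above background in 0 of 5 Fra-1hep channels, so it did not check the genotype labels. The array of mouse 1 lay on a slide of its own, while mice 2 to 4 and the swapped array shared a slide. Values below are log2 ratios of Fra-1hep over the control pool. A fitted value is limma's genotype coefficient ± its standard error (SE) over 4 mice and the swapped pool, and a receptor was said to rise or fall where limma's adjusted p, taken over 21494 features, was under 0.05. Because the controls were pooled, these p-values leave out the spread among control mice, and in whole liver fewer cells of a type and less RNA per cell cannot be told apart.

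The results turn on 8 receptor changes, 1 rise and 7 falls. The start regions of 4 of the receptors that fell are shown first: Nr4a1, Esrrg and Rarb had the largest falls, and Nr4a2 is the relative of Nr4a1. They were chosen after their values were seen. Each sequence is the 250 bases before the gene's start in RefSeq (GRCm38.p6), written on the gene's own strand. Nr4a1 (chr15:101266596-101266845, plus strand) and Nr4a2 (chr2:57124004-57124253, minus strand) have CGTCA, or TGACG on the other strand, in capitals. CGTCA is part of the cAMP response element, TGACGTCA. For Rarb (chr14:16575477-16575726, minus strand) the capitals mark GGTTCA and AGTTCA with 5 bases between them, the direct repeat known as its retinoic acid response element. For Esrrg (chr1:187608756-187609005, plus strand) they mark TGANTCA, the AP-1 element.
Nr4a1: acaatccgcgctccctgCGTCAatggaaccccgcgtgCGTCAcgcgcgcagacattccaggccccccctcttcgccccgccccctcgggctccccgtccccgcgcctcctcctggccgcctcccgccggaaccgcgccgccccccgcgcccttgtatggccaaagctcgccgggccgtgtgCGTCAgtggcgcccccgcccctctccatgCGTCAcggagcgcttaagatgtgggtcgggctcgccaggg
Nr4a2: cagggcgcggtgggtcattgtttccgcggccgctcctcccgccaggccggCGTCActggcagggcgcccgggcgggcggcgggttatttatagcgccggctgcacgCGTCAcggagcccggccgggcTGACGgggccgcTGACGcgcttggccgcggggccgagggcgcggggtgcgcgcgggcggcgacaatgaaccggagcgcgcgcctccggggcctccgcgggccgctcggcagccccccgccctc
Rarb: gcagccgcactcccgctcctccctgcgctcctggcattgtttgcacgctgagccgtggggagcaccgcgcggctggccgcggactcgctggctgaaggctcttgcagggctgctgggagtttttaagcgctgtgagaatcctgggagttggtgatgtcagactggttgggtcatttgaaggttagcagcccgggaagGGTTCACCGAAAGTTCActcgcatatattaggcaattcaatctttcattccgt
Esrrg: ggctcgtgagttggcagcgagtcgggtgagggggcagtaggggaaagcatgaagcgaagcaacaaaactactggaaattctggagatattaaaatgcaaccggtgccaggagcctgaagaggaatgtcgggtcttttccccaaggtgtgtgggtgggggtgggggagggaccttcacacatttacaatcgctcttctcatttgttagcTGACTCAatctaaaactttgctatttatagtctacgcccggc

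The Nr4a1 window held 4 matches, which began 233, 213, 69 and 40 bases before the start, and all 4 were part of TGCGTCA. The Nr4a2 window also held 4, at 200, 144, 123 and 111 bases. Of 32851 RefSeq windows of this length, searched on both strands, 17.8% held CGTCA at least once and 0.137% held it 4 times or more. Among the 48 windows of the 32 receptor genes that the table covers, 20.8% held it. TGCGTCA was in 1.75% of all windows and, among the receptors, in that of Nr4a1. It has the letters of the AP-1 element TGANTCA except for C in place of the first A, so it was not counted as an AP-1 match. The full element TGACGTCA, which contains CGTCA on each strand, was in 1.55% of all windows and in 0 of the receptor windows. The Rarb element began 53 bases before the start, and 0.00609% of all windows held one. The search used the letters of Rarb's own repeats, so this share leaves out retinoic acid response elements spelled otherwise. The AP-1 element was in 6.75% of all windows and in 6.25% of the receptor windows, those of Esrrg, Nr1i3 and Rorb; in Esrrg it began 42 bases before the start. A match is a description of these letters and not a measured binding site.

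Most of these receptors were measurable in liver. Counting a receptor as present in a genotype where a probe was well above background on at least 3 of 5 arrays, 28 of 36 were present in Fra-1hep liver and 29 in control liver. The one that differed was Nr4a2, which passed in the control channel alone. On all 5 arrays, 27 of the 36 receptors were well above background in each channel. Another 6 were at background in both channels throughout: Vdr, the vitamin D receptor, Pgr, the progesterone receptor, Nr2e3, a photoreceptor factor, Hnf4g, a relative of HNF4A, Nr4a3, and Nr0b1, the adrenal corepressor DAX-1. Rorb, known from retina and brain, was above background in the control channel of 2 arrays. These 7 receptors were not tested, and no fold was drawn from them.

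**Figure D1:**
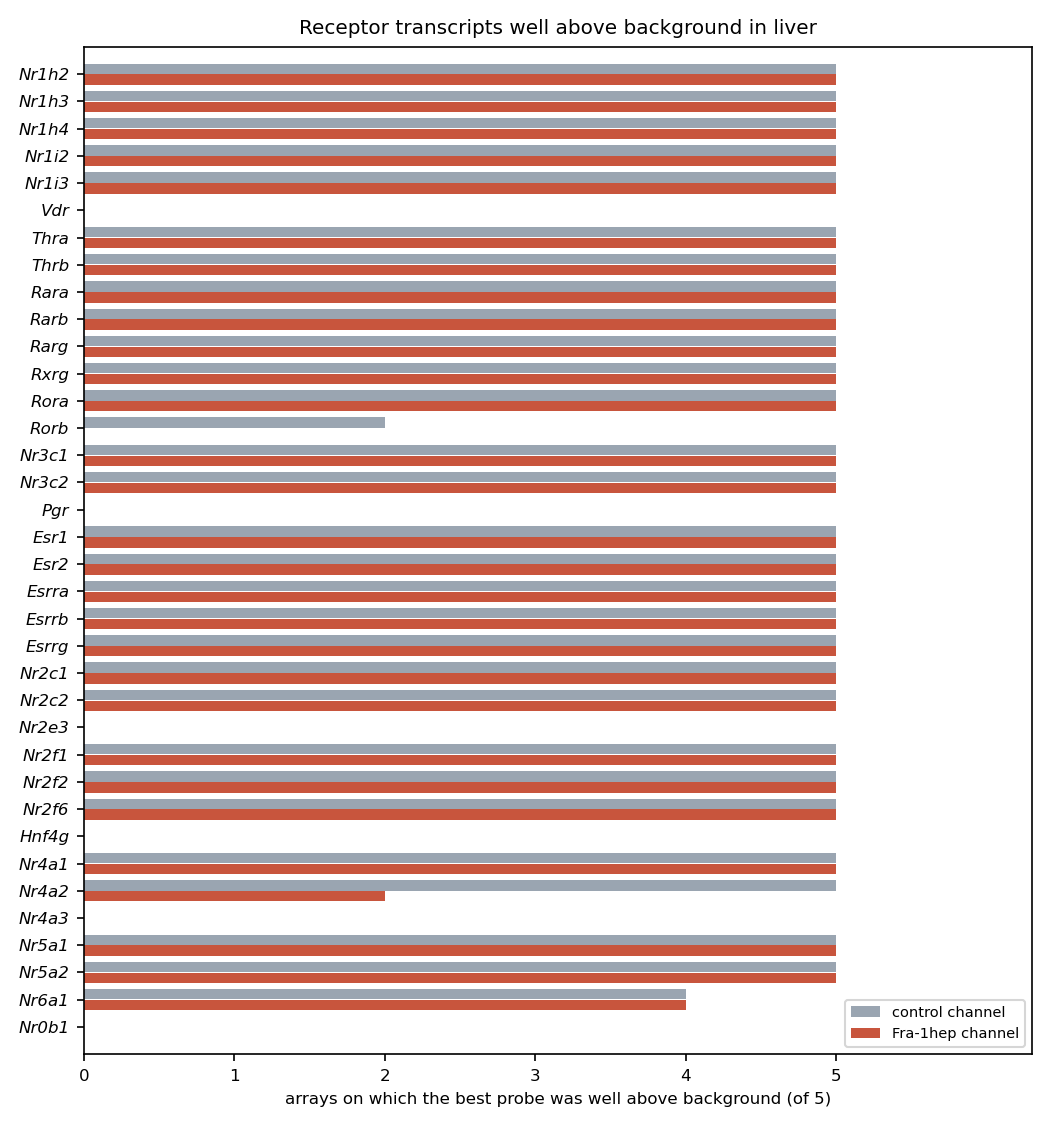
Number of the 5 arrays on which each of the 36 receptors gave a signal well above background, by receptor class and by channel (Fra-1hep or control). 27 receptors reach 5 arrays in both channels, 6 stay at 0, and Nr4a2 reaches 2 arrays in Fra-1hep and 5 in control.

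By class, 5 of 6 sensors, 7 of 8 thyroid hormone and retinoid receptors and RORs, 4 of 5 steroid receptors, 3 of 3 estrogen-related receptors, 5 of 7 NR2 orphans and 3 of 4 receptors of the NR5, NR6 and NR0B1 group were present in both genotypes. Of the 3 NR4A receptors, 1 was present in Fra-1hep liver and 2 in control liver. Of the 29 receptors tested, 8 changed: Nr2c1 rose, and Nr4a1, Esrrg, Rarb, Nr4a2, Nr2f1, Rarg and Nr1i2 fell. The other 21 did not pass, 5 of which had an unadjusted p under 0.05. The share of receptors that changed was 27.6%, against 26.6% of all features. Rises made up 3.45% against 11.2%, and falls 24.1% against 15.4%. The median ratio of the 29 receptors was -0.09, with quartiles of -0.26 and 0.12, and that of all features was 0.00, with quartiles of -0.14 and 0.12.

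The size of the differences was small for most receptors. The median size was 0.15 on the log2 scale for the receptors and 0.13 for all features. Only Nr4a1 of the 29 changed by at least 2-fold, or 3.45%, against 1.86% of all features. All 8 receptors that changed had the same sign on all 5 arrays. Among the 29, that held for 11, or 37.9%, against 35.7% of all features. With standard errors enlarged for a pool of 5 control mice assumed to spread like the Fra-1hep animals, 5 receptors changed, all lower, or 17.2% against 13.2% of all features; falls made up 8.19% of all features in that fit.

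**Figure D2:**
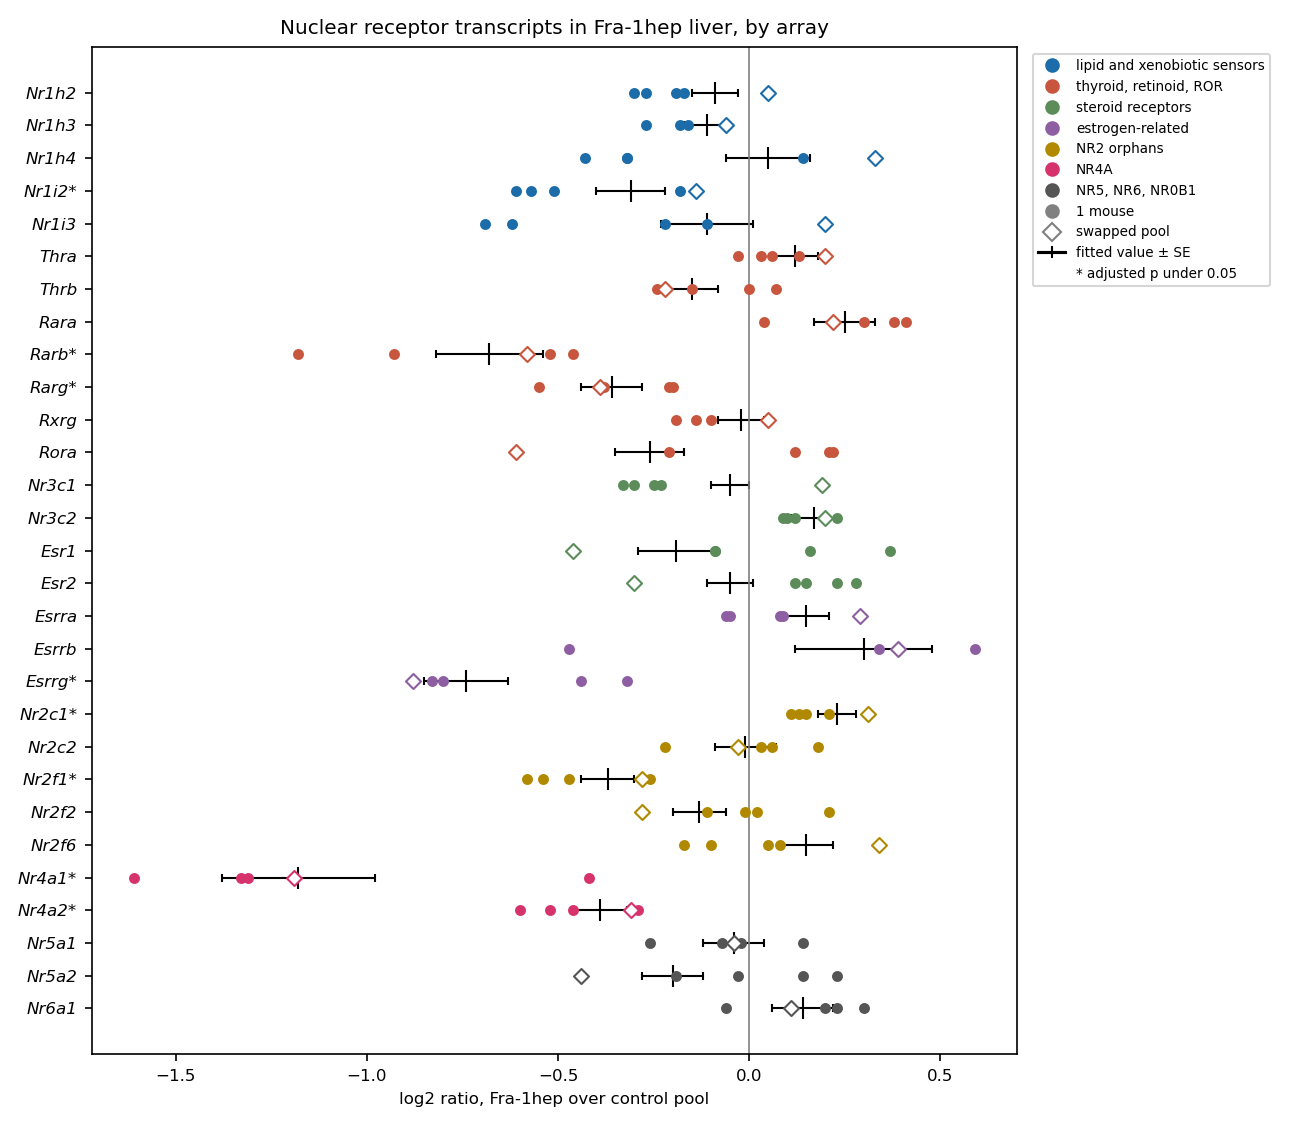
Log2 ratio of Fra-1hep over the control pool for the 29 receptors tested: filled points are the 4 mice, open diamonds the swapped pool, and the vertical tick with bars is the fitted value ± SE. An asterisk marks an adjusted p under 0.05. Nr4a1 lies farthest to the left, at -1.18, and Nr2c1 is the 1 marked receptor to the right of 0.

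NR4A receptors are encoded by immediate early genes that hormones, cAMP and stress switch on within minutes and that regulate glucose production in liver. Nr4a1, or NUR77, had ratios of -1.61, -0.42, -1.33 and -1.31 in mice 1 to 4 and of -1.19 in the swapped pool. All 5 arrays were lower in Fra-1hep, and mouse 2 stood closest to 0. The fitted value was -1.18 ± 0.20, a 2.26-fold fall (limma adjusted p = 0.00635), and it stayed between -1.31 and -1.10 under all 15 alternative settings, with the call kept in each. The mean over the mice was -1.17 ± 0.52 (SD, n = 4).

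Nr4a2, or NURR1, had ratios of -0.46, -0.29, -0.52 and -0.60 in the mice and of -0.31 in the swapped pool. It was lower on every array, but its Fra-1hep channel was well above background on 2 of 5 arrays against 5 of 5 in the control channel. The fitted fall was -0.39 ± 0.07 (limma adjusted p = 0.00838). The size depended on the background correction: it was -0.82 with a normexp offset of 0, and -1.19 with the scanner's processed signals, where the call was lost (limma adjusted p = 0.063). A second Nr4a2 probe was well above background in 0 of 5 Fra-1hep channels and in 3 of 5 control channels. Mice 1 to 4 gave -0.11, -0.0, -0.06 and -0.34 at this probe, and the swapped array gave -0.42. The bound on its fall, as defined under the processing, was 1.13-fold (-0.18 in log2). Mice 1 to 3 lay closer to 0 than this bound, so 1.13-fold was not a least size of the fall. Nr4a3, or NOR1, lay at background with ratios between -0.01 and 0.05.

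Of 4 tested genes among 6 known from rodent muscle, liver or lymphocytes to respond to NR4A receptors, 1 rose and 1 fell. Gys2, liver glycogen synthase, fell by 0.40 (SE 0.08) and Slc2a2, the GLUT2 glucose transporter, rose by 0.20 ± 0.06. Both calls were adjusted p-values from limma, at 0.0131 and 0.047. The muscle genes Eno3 and Pygm did not pass, each at 0.09. In fits without mouse 2, 3 or 4 the Slc2a2 call was lost and the count fell from 2 to 1, and without the swapped array it was 4.

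Estrogen-related receptors have no known natural hormone and drive mitochondrial and oxidative genes together with PGC-1 coactivators. Esrrg had ratios of -0.83, -0.44, -0.32 and -0.80 in the mice and of -0.88 in the swapped pool. All arrays were lower. The fitted fall was -0.74 ± 0.11, or 1.67-fold (limma adjusted p = 0.0038), and the call was kept under all 15 alternatives. Its second probe gave -0.51. The Fra-1hep channel was well above background on 4 of 5 arrays, and the size again depended on the background correction, with -1.21 at an offset of 0 and -1.62 with the processed signals.

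The other estrogen-related receptors did not pass. Esrra, the most widely expressed of the family, had a fitted value of 0.15 with a 95% interval of 0.01 to 0.29 (limma adjusted p = 0.0984). Esrrb, known from embryonic stem cells, had ratios of 0.34, 0.39 and 0.59 in mice 1 to 3, -0.47 in mouse 4 and 0.39 in the swapped pool. Mouse 4 thus went the other way from the other arrays. Esrrb was 0.30 in the fit, with an interval of -0.12 to 0.72, and 0.42 without mouse 4, where it passed (limma adjusted p = 0.0164).

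Among 10 tested estrogen-related receptor targets, 0 rose, 3 fell and 7 did not pass, with a median of -0.14. Cycs, somatic cytochrome c, fell by 0.31 (SE 0.06), the muscle-type carnitine palmitoyltransferase gene Cpt1b fell by 0.40 (SE 0.11) and the acyl-CoA dehydrogenase gene Acadm fell by 0.24 (SE 0.07). Without mouse 1 or without mouse 3 the count was 1, and it was 7 without the swapped array. Without that array the value of Cycs was -0.53 and that of Acadm -0.39. The Acadm call was lost in 8 of 15 alternatives, among them the fits without mouse 1, 3 or 4, with a lowest size of -0.17 under median centring. The Cpt1b call was lost in 4, among them the fits without mouse 1 or 3 and the offset of 0, and its size depended on the background correction (-0.68 at an offset of 0 and -0.96 with the processed signals).

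Of the retinoic acid receptors, which bind the same ligand, Rarb and Rarg fell. Rarb had ratios of -0.46, -0.52, -1.18 and -0.93 in the mice and of -0.58 in the swapped pool. All 5 arrays were lower, mouse 3 the most. The fitted fall was -0.68 ± 0.14, or 1.60-fold (limma adjusted p = 0.0124), and the second probe gave -0.34. It missed the threshold with the processed signals, at -0.87 (limma adjusted p = 0.0653). Rarg had ratios of -0.21, -0.20, -0.38 and -0.55 in the mice and of -0.39 in the swapped pool, again lower on every array. It fell by 0.36 (SE 0.08; limma adjusted p = 0.017), and missed the threshold with the control pool's spread added (limma adjusted p = 0.0601).

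Rara, the other isotype, did not pass. Its ratios were 0.04, 0.41, 0.30 and 0.38 in mice 1 to 4, and the swapped pool had 0.22. No array was below 0, and the fitted value was 0.25 with an interval of 0.06 to 0.44 (limma adjusted p = 0.0566). A second probe gave 0.27. Rara passed in 5 of 15 alternatives, without mouse 1 and without the swapped array among them. Rxrg, one of the RXR partners, was -0.02 at its brighter probe and -0.45 at the other, so its probes disagreed.

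Rarb is itself a retinoic acid target, through the element printed above, and it is counted in the list of 9 tested retinoic acid targets. Of these, 0 rose, 5 fell, Rarb among them, and 4 did not pass. The median of -0.68 is the same as Rarb's own value. Tgm2, transglutaminase 2, fell by 0.92 (SE 0.08; limma adjusted p = 0.000585). Cyp26a1, which degrades retinoic acid, fell by 0.92 (SE 0.20), with the Fra-1hep channel above background on 4 of 5 arrays and -1.48 with the processed signals, where the call was lost. Cyp26b1 ranged from -2.42 in mouse 3 to 0.27 in mouse 2 and did not pass, nor did Crabp2 at 0.11, Dhrs3 at 0.14 and Rarres2 at -0.17. The count was 2 with the processed signals and 3 with the control pool's spread added.

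Markers of non-parenchymal cells moved in the same arrays. Of the stellate cell and fibroblast markers, 10 of 12 fell, with a median of -0.57, against 15.4% of all features that fell. Each control range of summed signals below comes from 1 pool on 5 arrays and so holds no spread among control mice. Their summed signal was 16798 to 20952 in Fra-1hep and 35332 to 45518 in control, and all 12 were above background on all arrays. Lrat, the retinol-esterifying enzyme of stellate cells, fell by 0.59 (SE 0.13), and the collagen gene Col1a1 fell by 1.71 (SE 0.15). Endothelial markers fell in 6 of 12 cases (median -0.34; summed signal 16210 to 22244 against 23832 to 25535), and macrophage and monocyte markers in 4 of 10 (median -0.45; 29819 to 59912 against 54858 to 65860). Of the macrophage markers that fell, Itgam was -0.22 in the fit and 0.13 without the swapped array, and its call was lost in 11 of 15 alternatives.

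Neutrophil markers rose in 6 of 9 cases (median 2.17), against 11.2% of all features that rose. Their summed signal was 45038 to 79963 in Fra-1hep and 27678 to 33833 in control. Lymphocyte markers fell in 2 of 8 cases, with summed signals of 5051 to 8235 in Fra-1hep and 5059 to 8617 in control. Of the tested markers, Cd8a alone had a channel at background on all 5 arrays, that of Fra-1hep. For cholangiocytes 1 of 7 markers rose, and for hepatocytes 1 of 10 fell, with summed signals that overlapped between genotypes. The part of these cell markers in the falls of Nr4a1, Rarb, Rarg, Nr2f1, Esrrg and Nr4a2 and in the target lists was not tested.

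Thyroid hormone receptors did not pass. Thrb, the main hepatic form, was -0.15 with an interval of -0.32 to 0.02, and Thra was 0.12 with an interval of -0.01 to 0.25; a second Thra probe gave -0.04. Of 10 tested thyroid hormone targets 2 rose and 3 fell, with a median of -0.26. Dio1, the deiodinase that makes active thyroid hormone in liver, fell by 1.55 (SE 0.08; limma adjusted p = 5.9e-05), and its other probes gave -0.95 and -1.32. Ucp2 fell by 0.56 (SE 0.12) and Gpd2, mitochondrial glycerol-3-phosphate dehydrogenase, fell by 0.39 (SE 0.08; -0.60 without the swapped array). In the other direction Thrsp, the lipogenic Spot 14 gene, rose by 0.89 ± 0.17, and Bcl3 rose by 0.39 ± 0.11, a call lost in 6 of 15 alternatives, the fits without mouse 3 or 4 among them. Rora, a sterol-binding orphan of the same class, had ratios of -0.21, 0.22, 0.12 and 0.21 in the mice and of -0.61 in the swapped pool. Most of its mice thus opposed the swapped pool, and the fitted value of -0.26 did not pass (limma adjusted p = 0.0693), although it did without mouse 1, at -0.21 (limma adjusted p = 0.0387).

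Of the lipid and xenobiotic sensors only Nr1i2 changed. It encodes PXR, the receptor for drugs and other foreign compounds, and had ratios of -0.57, -0.51, -0.61 and -0.18 in the mice and of -0.14 in the swapped pool. All arrays were lower, with mouse 4 and the swapped pool closest to 0. The fitted fall was -0.31 ± 0.09 (limma adjusted p = 0.0416). The call was lost in 8 of 15 alternatives, among them the fits without mouse 1, 2 or 3, with adjusted p up to 0.136; without the swapped array the value was -0.47.

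Its partner in drug response, Nr1i3, or CAR, had ratios of -0.62, -0.11, -0.22 and -0.69 in the mice and of 0.20 in the swapped pool. The mice and the swapped pool lay on opposite sides of 0, and the fitted value of -0.11 had an interval of -0.38 to 0.17. A second probe gave 0.05. Nr1h4, the bile acid receptor FXR, had ratios of 0.14, -0.32, -0.32 and -0.43 in the mice and of 0.33 in the swapped pool. Mouse 1 and the pool were above 0 and mice 2 to 4 below it, and the fitted value was 0.05, with an interval of -0.20 to 0.30. The oxysterol receptors LXRα and LXRβ, encoded by Nr1h3 and Nr1h2, were -0.11 and -0.09 in the fit, with intervals of -0.25 to 0.03 and -0.22 to 0.04. Without the swapped array Nr1h2 was -0.23, Nr1h3 -0.17 and Nr1i3 -0.41, and each passed (limma adjusted p = 0.0117, 0.0465 and 0.0218).

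Targets of these sensors included larger differences. Among 19 tested PXR and CAR targets 4 rose, 6 fell and 9 did not pass, with a median of -0.01, so the list held large changes in both directions. Cyp3a11, the main PXR-induced cytochrome P450 of mouse liver, had ratios of -2.99, -2.21, -3.34 and -2.64 in the mice and of -2.93 in the swapped pool. It was strongly lower on every array, with a fitted fall of -2.86 ± 0.18 (limma adjusted p = 0.000133) and -2.68 at its second probe. Cyp2c55 rose by 2.58 ± 0.06 (limma adjusted p = 2.77e-06) and Cyp2c29 by 1.09 ± 0.07 (limma adjusted p = 0.000108). Gadd45b, a stress gene that CAR induces, fell by 0.69 (SE 0.09). Cyp2b10, the classic CAR target, was picked after its values were seen and fell by 1.05 (SE 0.16; limma adjusted p = 0.00449). Members of the Cyp2b, Cyp2c and Cyp3a families are close in sequence, so a probe may read more than 1 of them.

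Of 12 LXR targets 1 rose, 7 fell and 4 did not pass, with a median of -0.31. Mylip, an E3 ligase for the LDL receptor, fell by 0.69 (SE 0.09; -0.17 at its second probe), the phosphodiesterase Smpdl3a fell by 0.66 (SE 0.08) and Pltp, phospholipid transfer protein, fell by 0.58 (SE 0.14). Of the cholesterol exporters, Abcg1 fell to -0.46 ± 0.09, Abcg5 to -0.32 ± 0.07 and Abca1 to -0.31 ± 0.07, while Abcg8 was -0.07 and did not pass. Abcd2, a peroxisomal fatty acid transporter, was above background in 0 of 5 Fra-1hep channels and in 5 of 5 control channels. It fell (limma adjusted p = 0.00173), with ratios of -1.94, -1.53, -1.05 and -1.16 in the mice and of -1.22 in the swapped pool. The bound on its fall, as defined under the processing, was 2.32-fold (-1.22 in log2). Mice 3 and 4 lay closer to 0 than this bound, so 2.32-fold was not a least size of the fall. Srebf1, which drives fatty acid synthesis, rose by 0.40 ± 0.11; it was 0.67 without the swapped array, and the call was lost in 5 of 15 alternatives, the fit without mouse 4 among them. The Pltp call was lost in 4, also without mouse 4. Abca1 was -0.19 without the swapped array, and its call was lost in 3. Scd1 ranged from -0.79 in mouse 1 to 1.52 in mouse 3 and did not pass. The count of 8 was 5 with the processed signals and 4 with the control pool's spread added.

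Of 13 tested FXR targets 2 rose and 4 fell, with a median of 0.09. Cyp8b1, the sterol 12-hydroxylase that sets bile acid composition and that FXR represses, had ratios of -1.19, -1.50, -1.33 and -1.03 in the mice and of -1.01 in the swapped pool, and fell by 1.13 (SE 0.09; limma adjusted p = 0.000335). Abcb11, the bile salt export pump that FXR induces, fell by 0.63 (SE 0.11), and Slc51b, a basolateral bile acid transporter subunit, fell by 0.45 (SE 0.08; -0.75 with the processed signals). Fetub rose by 0.72 ± 0.06. Cyp7a1, the rate-limiting enzyme of bile acid synthesis, was named after its values were seen and rose by 0.98 ± 0.24 (limma adjusted p = 0.0237), the 4 mice lying between 0.24 and 1.72 and the swapped pool at 1.06. The Cyp7a1 call was lost in 4 of 15 alternatives, the fit without mouse 3 among them. Cyp7a1 and Cyp8b1, both repressed by FXR, went in opposite directions. Without the swapped array 11 of the 13 passed.

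None of the steroid receptors changed; 4 were tested with limma, of which 1, Nr3c2, had an unadjusted p under 0.05. Nr3c1, the glucocorticoid receptor, had ratios of -0.23, -0.33, -0.25 and -0.30 in the mice and of 0.19 in the swapped pool. The 4 mice lay close together below 0 and the swapped pool above it. The fitted value was -0.05 with an interval of -0.17 to 0.08, while without the swapped array it was -0.28 and passed (limma adjusted p = 0.00475). A second probe gave 0.13. Esr1, the main hepatic estrogen receptor, was -0.19 with an interval of -0.41 to 0.04, and a second probe gave 0.11. Esr2 was -0.05, and it was 0.20 without the swapped array (limma adjusted p = 0.0231). The Esr2 probe gave a higher log2 level in control than that of Esr1 (10.66 against 8.16), and whether it reads other transcripts was not tested. Nr3c2, the mineralocorticoid receptor, was 0.17 with an interval of 0.03 to 0.30 (limma adjusted p = 0.068), and 0.33 with an offset of 0, where it passed (limma adjusted p = 0.0392).

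Among 16 glucocorticoid receptor targets 3 rose, 3 fell and 10 did not pass, with a median of -0.18. The metallothionein genes Mt2 and Mt1, which metals also induce, rose by 2.36 ± 0.15 and 1.83 ± 0.14; they are close in sequence, and a probe may read both. Lcn2, the acute phase protein lipocalin 2, fell by 1.80 (SE 0.10; limma adjusted p = 7.37e-05). Sult1e1, estrogen sulfotransferase, fell by 0.72 (SE 0.06), with its Fra-1hep channel above background on 2 of 5 arrays; its size was -1.48 at an offset of 0 and -2.84 with the processed signals.

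Among the NR2 orphans 1 rose and 1 fell. Nr2c1, or TR2, a repressor that pairs with TR4, had ratios of 0.13, 0.21, 0.15 and 0.11 in the mice and of 0.31 in the swapped pool. All 5 arrays were higher, and the fitted rise was 0.23 ± 0.05 (limma adjusted p = 0.0198), or 1.17-fold. Its second probe gave 0.09 with both signs among the arrays, and the call was lost with the mean of both probes (limma adjusted p = 0.0872) and with the control pool's spread added (limma adjusted p = 0.0679). Without the swapped array the value was 0.15. Nr2c2, or TR4, was -0.01 with an interval of -0.20 to 0.18.

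Nr2f1, or COUP-TFI, had ratios of -0.58, -0.26, -0.54 and -0.47 in the mice and of -0.28 in the swapped pool. It was lower on every array, fell by 0.37 (SE 0.07; limma adjusted p = 0.0112) and was called under all 15 alternatives; a second probe gave -0.19. Its relatives did not pass: Nr2f2, or COUP-TFII, was -0.13 with an interval of -0.29 to 0.04, and Nr2f6 was 0.15 with an interval of -0.01 to 0.31.

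In the last group 0 of 3 tested receptors passed limma's threshold, and 1, Nr5a2, had an unadjusted p under 0.05. Nr5a2, or LRH-1, which promotes bile acid synthesis genes, had ratios of -0.19, 0.14, 0.23 and -0.03 in the mice and of -0.44 in the swapped pool. The mice straddled 0, and the fitted value was -0.20 with an interval of -0.40 to 0.00; a second probe gave -0.11. Nr5a1, the steroidogenic factor SF-1, was -0.04, and Nr6a1, the germ cell nuclear factor, was 0.14 with an interval of -0.04 to 0.32. The Nr6a1 probe was well above background on 4 of 5 arrays in each channel, and its value was 0.31 with the processed signals.

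The swapped array carried as much weight in the fitted value as the 4 mice together. In 12 of the 29 receptors the mean over the mice and the swapped pool had opposite signs, all among those that did not pass. The dye effect, the part of a ratio that the fit assigns to dye orientation, exceeded 0.2 in size for 7 receptors and reached 0.35 for Rora. Its median size was 0.09 in the receptors and 0.08 over all features. Without the swapped array 14 of the 29 receptors passed in place of 8, with 3 higher and 11 lower.

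**Figure D3:**
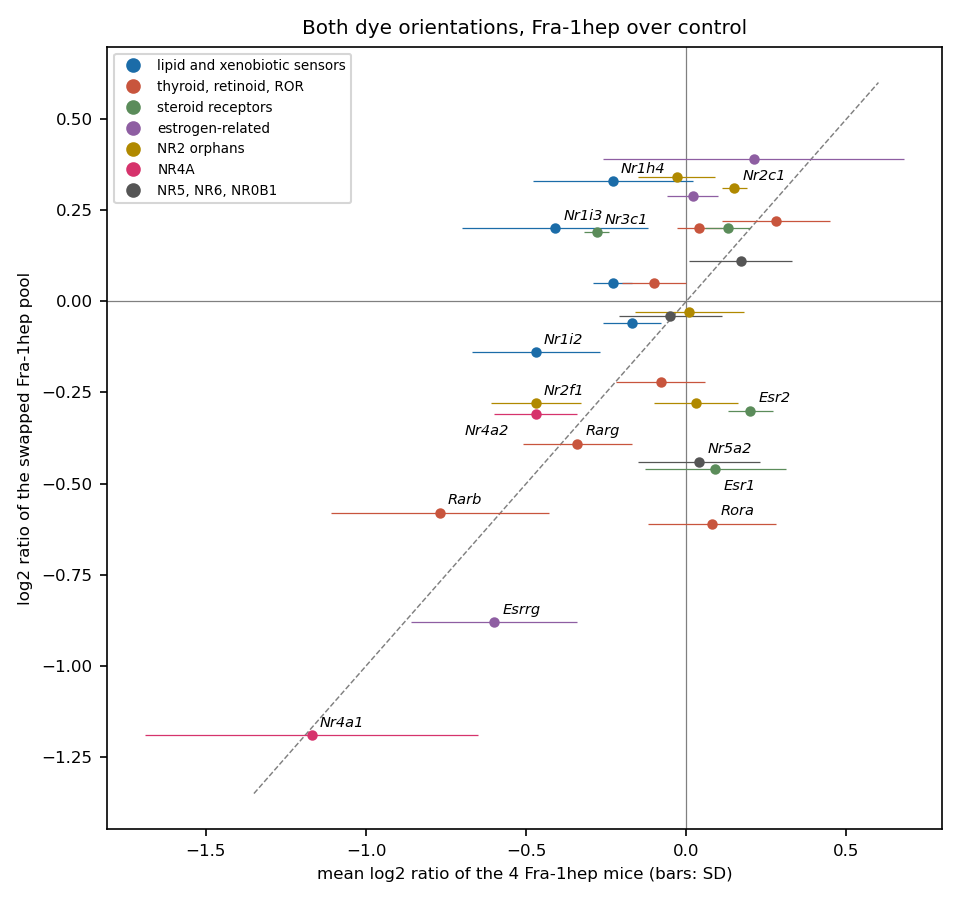
Mean log2 ratio over the 4 mice (Cy5) against the log2 ratio of the swapped pool (Cy3) for the 29 receptors tested, with horizontal bars for the SD over the mice and a dashed line of equal values; colours give the receptor class and selected receptors are named. The 8 receptors that changed lie in the quadrants of equal sign, and 12 others, Nr3c1 and Rora among them, lie in the quadrants of opposite sign.

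Coregulators changed in part. Of 17 tested coactivators 1 rose and 4 fell, with a median of -0.13. Ppargc1a, which encodes PGC-1α and works with estrogen-related and other receptors, had ratios of -0.49, -0.13, -0.25 and -0.23 in the mice and of -1.03 in the swapped pool. All arrays were lower, but the swapped pool far more so. The fitted fall was -0.65 ± 0.08 (limma adjusted p = 0.0016), against -0.27 without the swapped array and -0.03 at a second probe. Med1, the Mediator subunit that contacts receptors, fell by 0.57 (SE 0.07) at its brightest probe, whereas its other probes gave 0.01, 0.04 and -0.19. Ep300, a histone acetyltransferase, fell by 0.41 (SE 0.06) but was -0.15 and not called without the swapped array, and -0.69 with the processed signals. Prmt1, an arginine methyltransferase, rose by 0.29 ± 0.06.

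Of 13 corepressor genes 2 rose and 1 fell, with a median of 0.09. Tbl1xr1 rose by 0.21 ± 0.06, while Ncor1 was -0.15 and did not pass. Tbl1x fell by 0.29 (SE 0.06) but was -0.04 and not called without the swapped array. The Tbl1xr1 call was lost in 6 of 15 alternatives, the fits without mouse 2, 3 or 4 among them. Without mouse 4 the count was 1. Across the 10 lists of coregulators and targets, 53 of 119 tested genes passed, or 44.5%, against 26.6% of all features. Of these list genes 16 were higher and 37 lower, and the median over the lists was -0.09. Among all features 11.2% were higher and 15.4% lower. The lists were chosen with earlier results known, so these shares were not compared in a test. Without mouse 4 there were 10 higher list genes, and without the swapped array 34. For comparison, of 11 tested nuclear receptors outside the 36, 2 rose and 1 fell. Among them Ppard rose by 0.26 ± 0.06 (0.16 and not called without the swapped array, and not called without mouse 3), and Pparg fell by 1.82 (SE 0.05; limma adjusted p = 8.41e-06). The RXR partners Rxra and Rxrb did not pass, at -0.02 and 0.12.

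**Figure D4:**
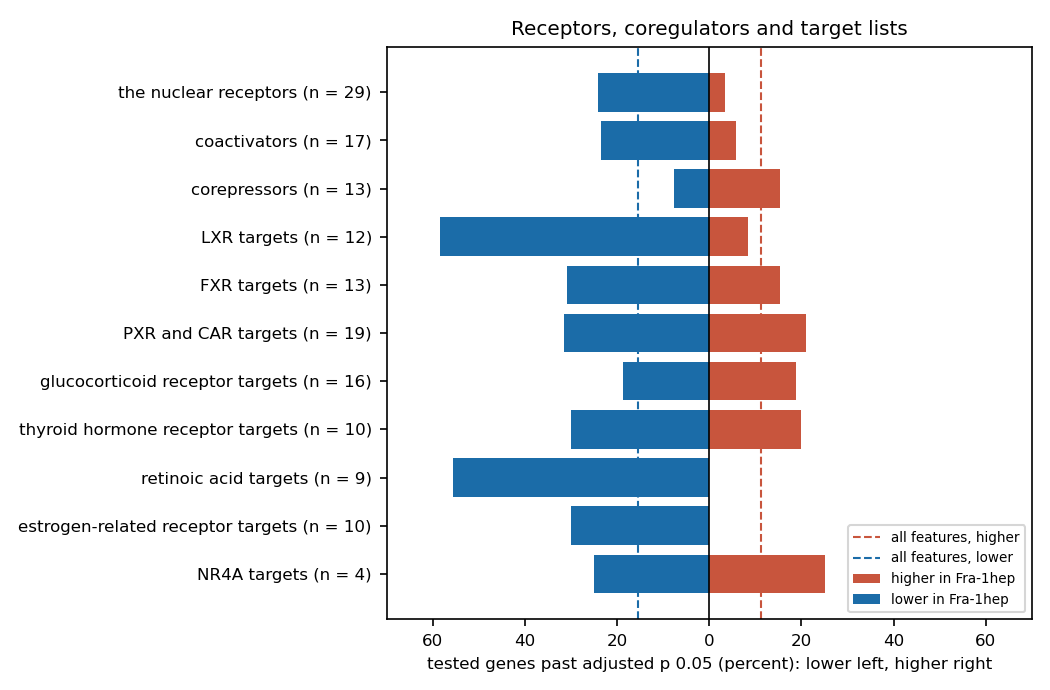
Percent of tested genes that fell (bars to the left of 0) or rose (bars to the right) in Fra-1hep at an adjusted p under 0.05, for the 29 receptors and each list of coregulators and targets, with n genes tested; dashed lines mark the shares over all features, 15.4% lower and 11.2% higher. The longest bars to the left are those of the LXR targets (7 of 12) and retinoic acid targets (5 of 9). The retinoic acid and estrogen-related receptor targets have no bar to the right. Rarb is counted both among the receptors and among the retinoic acid targets.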

How the data were processed

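Per the labels' protocols, RNA with an integrity score above 7.8 was used and 100 ng was labelled. The authors extracted spot intensities with Agilent Feature Extraction (10.7 per the submitters' processing notes, 10.7.3.1 per the file headers). The scanner files hold raw median intensities, local backgrounds, processed signals, log10 ratios (Cy5 over Cy3) and flags, per the file headers. The authors' deposited series table was found to hold log2 ratios: against those of the scanner its slope was 1 in each mouse and -1 in the swapped array, so it gives log2 of Fra-1hep over control; its columns were not centred (medians -0.042 to 0.132).

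Raw median intensities were corrected with normexp (offset 50) and normalized by loess within each array. Of 62976 spots per array, 177 non-uniformity outliers over all arrays were left out, and 0 were saturated. Of 55681 probes, 26056 were named through their accession in a RefSeq gene table (GRCm38.p6). The filter asked for a signal well above background in either channel on 3 or more arrays, and the channel could differ between arrays. It was passed by 28115 probes. Each gene was read from its brightest such probe, giving 21494 features, 13524 of them named. Ratios were fitted with limma 3.58.1 under R 4.3.3 (functions lmFit and eBayes), using a genotype coefficient, a dye intercept, Benjamini-Hochberg adjustment and a threshold of 0.05. The spread came from the 4 mice (3 residual and 4.02 prior degrees of freedom), and the number of arrays limits the precision. Nothing says whether the swapped pool added animals. A bound compares the control mean with the Fra-1hep level, raised on each array to at least the lowest level counted as well above background, per channel after loess and Aquantile, and is open to dye bias. In simulated data on 21494 features, 68% of changes of 0.5 and 92% of changes of 1 (log2) were recovered, with 5.3% false calls. That simulation changed 100 features at each size, whereas 5717 features passed in the real data. Its noise was drawn separately for each array, with no deviation shared through the control pool. These shares are therefore not the recovery or false-call rates of the real data.

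The receptors, gene lists and markers were chosen with earlier results of these data known, so no test was made over a list. Named were all 36 receptors, up to 4 genes past the threshold with the smallest p per list, and any gene of lists of up to 13. Some genes counted in the lists are not reported by name here. Marker sums are of normalized signals. Of the markers, Cd68, Ly6c2 and Ly6g had no named probe, and Cd79a, Klrb1c and Cftr were not kept. The 15 alternatives covered the dye term, the swapped array, each mouse, background correction, normalization, the deposited table, probe filters, probes of a gene, the control pool's spread and array weights.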

Additional observations from a re-analysis of the deposited data

Results flagged for a closer look

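Of 87 genes whose 4 mice were examined for a value far from the other 3 (Dixon's test), 3 had one and none of these was among the 29 receptors; chance gives about 5 percent. Cyp2c55, a PXR and CAR target, was lowest in mouse 3 at 2.42, against 2.58 to 2.61 in the other mice. Dcn, which encodes the matrix proteoglycan decorin, was highest in mouse 1 at -0.84, against -1.25 to -1.22. S100a8, a neutrophil calcium-binding protein, was highest in mouse 2 at 3.68, against 2.01 to 2.27. All 3 genes kept 1 sign in all 4 mice.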

How the results depend on the processing

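Nr4a1, Esrrg and Nr2f1 kept their calls under all 15 alternatives. Leaving out the swapped array gave 14 changed receptors (3 higher, 11 lower), 34 higher target and coregulator genes, 7 corepressors, 11 FXR, 7 estrogen-related receptor and 4 NR4A targets, and turned Esr2 to 0.20 and Itgam to 0.13. The scanner's processed signals and the deposited table each gave 5 receptors (4 lower), 10 higher list genes, 5 LXR, 2 retinoic acid and 1 NR4A targets. With the control pool's spread added, 2846 of all features in place of 5717, 5 receptors (0 higher), 33 list genes (7 higher), 3 coactivators, 1 corepressor, 4 LXR, 3 thyroid hormone, 3 retinoic acid, 1 estrogen-related receptor and 1 NR4A targets passed. Turning the swapped array with no dye term gave 2 higher receptors and 8 coactivators. An offset of 0 gave 2 higher receptors, 1 estrogen-related receptor target and 1 NR4A target; array weights gave 2 higher receptors, and no filter on dim probes 1 NR4A target. Leaving out each mouse gave 7 to 9 changed receptors, 1 to 2 higher and 6 to 7 lower, with 10 to 18 higher list genes; the lists ran from 1 to 3 for corepressors, 1 to 4 for estrogen-related receptor targets and 1 to 2 for NR4A targets. The fit without mouse 1 was also the fit within 1 slide. Where no cause is given, the cause was not tested. Of 58 list genes taken by smallest p, up to 4 per list, 42 kept their call in all alternatives. Other list genes named here, such as Srebf1, Pltp and Cyp7a1, are outside that count. Receptors present in Fra-1hep numbered 27 with all 5 arrays required and 29 with at least 1, against 28 and 30 in control. No paired analysis was possible because the control mice were pooled and replicate numbers name only the Fra-1hep mice. Low signal limited Nr4a2 and Esrrg among the receptors that changed. Of those that did not pass, Nr6a1 and Nr3c2 were also dim, with log2 levels of 6.77 and 6.86 in Fra-1hep and of 6.61 and 6.71 in control.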
